A study of Mus musculus with 6 samples.

Results

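mRNA levels were examined for 10 genes of sarcoplasmic reticulum (SR) calcium handling in the mouse left ventricle (LV), namely *Ryr2*, *Casq2*, *Trdn*, *Jph2*, *Hrc*, *Atp2a2*, *Pln*, *Cacna1c*, *Slc8a1*, and *Camk2d*. The genes were chosen by name and joined by gene identifier to the mRNA-Seq counts, and all 10 were found among the 56923 genes listed. All 10 also passed the filter on low counts, which left 17212 genes to be tested. A library was made from each of 3 WT and 3 *Lztr1* R409C/+ mice, all 12 weeks old. The comparison asks whether the LV mRNA of these genes differs between the genotypes. No treatment is named for either group. The study's methods say that only males were used, that the line was backcrossed to C57BL/6J, and that hearts were perfused with PBS before the LVs were taken. The sample labels name the tissue only as heart and the genotypes only as wild-type and mutant. *Lztr1* R409C/+ mice carry 1 germline copy of a knock-in allele made with CRISPR/Cas9 and a single-stranded donor, so every cell of the LV carries the allele and not only the cardiomyocytes. LZTR1 is an adaptor of a ubiquitin ligase for RAS-family GTPases, and the mice are a model of Noonan syndrome.

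The edited site is what separates the 2 groups. On GRCm39, the guide matched chr16:17339378-17339400 on the plus strand, in a coding exon of *Lztr1*, and the last 3 bases, in capitals, are the PAM.
*Lztr1* guide target: gtagacaacaacattcgcagTGG
The donor carried the substitution C16T, counted from 1 at the 5′ end of the guide, which lies at position 17339393 and changes the codon to give R409C in the longest coding sequence of the annotation.

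In each heartbeat, calcium enters the cardiomyocyte through the L-type channel and opens the ryanodine receptor on the facing SR membrane, which releases the calcium that activates contraction. For relaxation, the SR pump returns most of that calcium to the SR and the sodium-calcium exchanger removes the rest across the sarcolemma. In ventricular muscle, phospholamban restrains the pump, junctophilin holds the 2 membranes together, and calsequestrin with its partners buffers calcium inside the SR next to the release channel.

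Total counts lay between 66130887 and 72641124 per mouse, and 3 counts corresponded to between 0.0317 and 0.0541 CPM, counts scaled to a common library total, a limit set by counting error alone. CPM were scaled by TMM, which corrects for a few genes taking a large share of a library. The mitochondrial genome gave 13.8% of the counts of WT replicate 3 and 45.4% of those of *Lztr1* R409C/+ replicate 1, and between 29.7% and 37.3% in the other 4 libraries. These 2 libraries stood apart from the rest, and the main counts are therefore also given without them. *Lztr1* itself had a mean of 23.5 CPM in the WT mice and 25.7 CPM in *Lztr1* R409C/+ mice, and since the allele is a base substitution, its mRNA level does not check the labels. Every one of the 9 cardiomyocyte markers was present in each mouse, with summed levels of 39794 to 44210 CPM in the WT mice and 28875 to 46519 CPM in *Lztr1* R409C/+ mice. Among the 4 atrial markers, *Sln* had 0 counts in 5 mice and 4 in the other, *Myl7* had 0 counts in 4 mice and at most 19 in the others, and *Myl4* had 23 to 54 counts per mouse. The natriuretic peptide gene *Nppa* had 2488 to 7618 counts per mouse, with a log2 fold change of 0.53 (adjusted p = 0.643, edgeR). In this bulk tissue, fewer cells of a type and less RNA per cell cannot be told apart.

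The 10 genes were among the more abundant transcripts of the LV and were, for the most part, at lower measured levels in *Lztr1* R409C/+ than in WT mice, but no single gene passed the test. In edgeR's quasi-likelihood test, with p adjusted by Benjamini-Hochberg over all genes tested, 0 of 10 were called at 0.05, where 0.0407% of all genes were called. At an unadjusted p under 0.05, 1 of 10 was lower, *Slc8a1*, against 2.86% of all genes lower and 8.63% in either direction. Other settings moved this count between 0 of 10 with library size only (1.75% of all genes lower) and 4 of 10 with no filter (3.63%), and it was 3 of 10 without *Lztr1* R409C/+ replicate 3 (2.77%) or without WT replicate 3 and *Lztr1* R409C/+ replicate 1 (2.59%). DESeq2's Wald test also called 0 of 10 after adjustment, where it called 1.06% of the 14874 genes to which it gave an adjusted p, and 4 of 10 were lower at an unadjusted p under 0.05, against 3.2% of all genes. The log2 fold change was below 0 for 9 of 10 genes, against 48.6% of all genes tested, with *Trdn* the exception. The median over the 10 genes was -0.34, against 0.012 over all genes. With a correction for gene length, these medians were -0.22 and -0.038. In *Ryr2*, *Atp2a2*, and *Slc8a1* the 3 *Lztr1* R409C/+ mice all lay below the 3 WT mice, whereas 7.23% of all genes were separated in this direction and 15.5% in either direction.

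Highly expressed genes as a class also leaned to the lower side in these libraries. All 10 genes ranked between 17 and 503 by mean CPM over the 6 mice. Among the 1000 genes with the highest mean CPM, a comparison chosen after the data were seen, 67.4% had a log2 fold change below 0, the median was -0.11, 19.0% lay below WT without overlap, and 7.9% were lower at an unadjusted p under 0.05. Without WT replicate 3 and *Lztr1* R409C/+ replicate 1, 8 of 10 genes were below 0 with a median of -0.26, against 49.1% of all genes and a median of 0.0078, and edgeR called 0 of the 10 and 1 of 17026 genes in all.

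**Figure D1:**
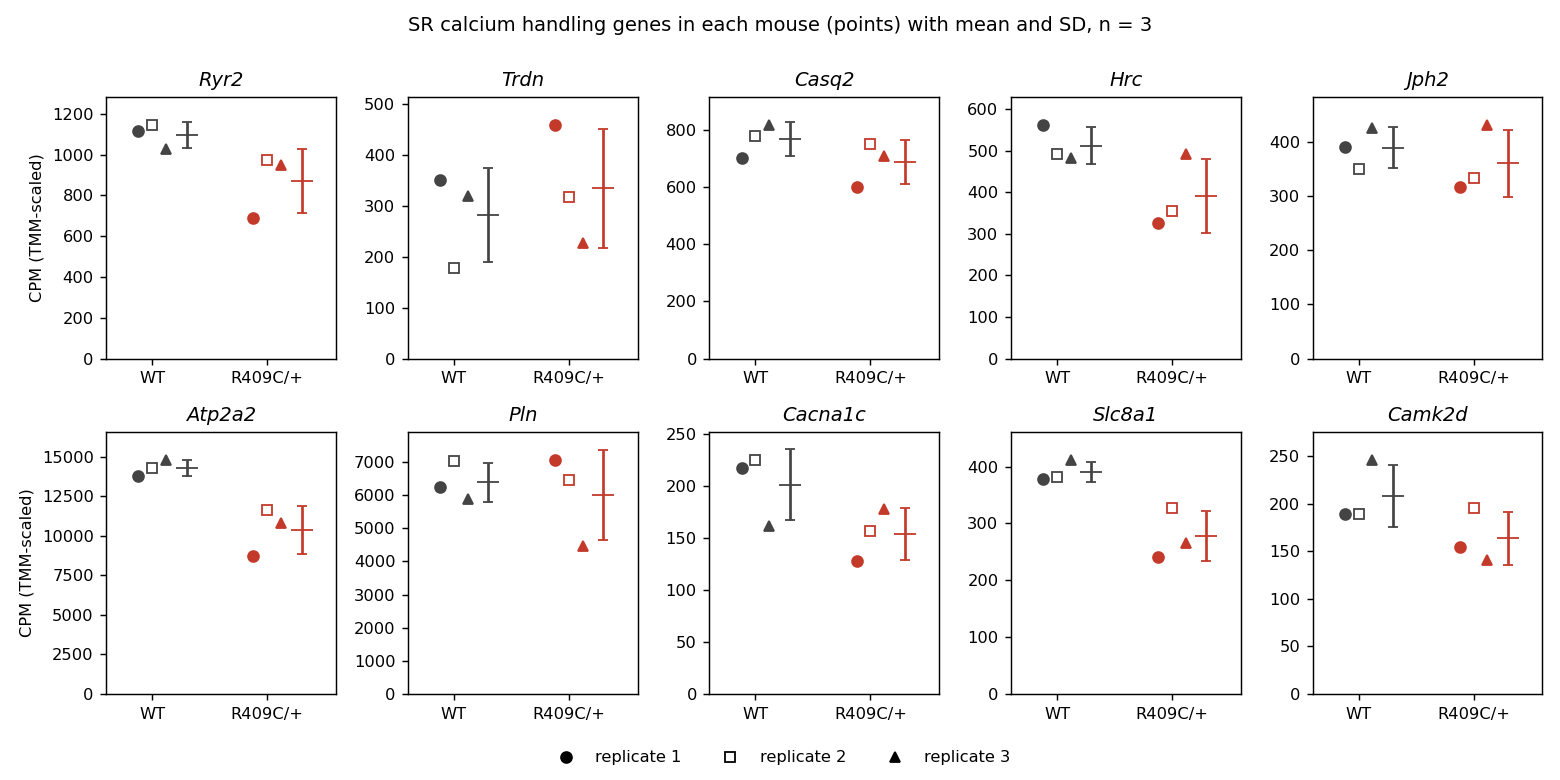
TMM-scaled CPM (vertical axes, each from 0) of the 10 genes in each of the 3 WT and 3 *Lztr1* R409C/+ mice, with marker shapes for the replicate numbers and the mean with SD beside the points. *Ryr2*, *Atp2a2*, and *Slc8a1* have all 3 *Lztr1* R409C/+ mice below the WT mice, and the points of the other 7 genes overlap between genotypes.

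*Ryr2* encodes the cardiac ryanodine receptor, the channel through which the SR releases calcium. It lies on the minus strand of chromosome 13 at chr13:11567988-12121870 (GRCm39, ENSMUSG00000021313.17). WT replicates 1, 2, and 3 had levels of 1116, 1147, and 1027 CPM, whereas *Lztr1* R409C/+ replicates 1, 2, and 3 had 692, 973, and 949 CPM. The highest *Lztr1* R409C/+ mouse was below the lowest WT mouse, and replicate 1 stood below the other 2 *Lztr1* R409C/+ mice. Means were 1097 ± 62.5 and 871 ± 156 CPM (SD, n = 3 each), and the log2 fold change of -0.33 ± 0.19 (SE) had an adjusted p of 0.654 by edgeR, with a 95% interval from -0.74 to 0.072. It was -0.20 without *Lztr1* R409C/+ replicate 1, the smallest value with any 1 mouse left out, and -0.18 with a correction for gene length.

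Among the luminal and junctional partners of the channel, *Casq2* encodes cardiac calsequestrin, the main calcium buffer of the SR lumen (chr3:101993234-102056307, plus strand). Levels of *Casq2* were 702, 780.0, and 818 CPM in the WT mice and 601, 752, and 707 CPM in the *Lztr1* R409C/+ mice, in replicate order. The 2 upper *Lztr1* R409C/+ mice fell within the WT range, and the log2 fold change was -0.16 ± 0.17 (adjusted p = 0.833, edgeR). The 95% interval ran from -0.52 to 0.21, and the estimate was -0.08 without *Lztr1* R409C/+ replicate 1 and -0.023 without WT replicate 3 as well. Library size only gave -0.32.

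*Trdn* encodes triadin, which ties calsequestrin to the ryanodine receptor (chr10:32956550-33356376, plus strand). It was the most variable of the 10 genes, at 350, 177, and 320 CPM in the WT mice and 459, 316, and 226 CPM in *Lztr1* R409C/+ mice. WT replicate 2 was lowest and *Lztr1* R409C/+ replicate 1 highest of the 6 mice, and the genotypes overlapped. Its coefficient of variation was 32.7% in the WT mice and 35.1% in *Lztr1* R409C/+ mice. The log2 fold change of 0.24 ± 0.28 (adjusted p = 0.854, edgeR) had a 95% interval from -0.38 to 0.86. Its sign rested on single mice, since it was -0.0071 without WT replicate 2 and -0.063 without *Lztr1* R409C/+ replicate 1, and it was -0.0001 with scaling by library size alone.

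Junctophilin 2, the product of *Jph2*, spans the gap between the T-tubule and the SR (chr2:163178162-163239920, minus strand). The WT mice had 392, 352, and 427 CPM and the *Lztr1* R409C/+ mice 317, 334, and 433 CPM. Here *Lztr1* R409C/+ replicate 3 was the highest of all 6 mice, and the log2 fold change was -0.11 ± 0.17 (adjusted p = 0.897, edgeR; 95% interval -0.49 to 0.27). It was -0.035 without *Lztr1* R409C/+ replicate 1, -0.044 without WT replicate 3, 0.043 without both, -0.065 without *Lztr1* R409C/+ replicate 2, -0.26 without *Lztr1* R409C/+ replicate 3, and -0.19 without WT replicate 2.

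*Hrc* encodes the histidine-rich calcium binding protein of the SR lumen, which binds both triadin and the SR pump (chr7:44984681-44988401, plus strand). Levels were 562, 492, and 482 CPM in WT mice and 326, 355, and 491 CPM in *Lztr1* R409C/+ mice. The first 2 *Lztr1* R409C/+ replicates were below every WT mouse, whereas replicate 3 lay within the WT range. The log2 fold change was -0.39 ± 0.19 with an adjusted p of 0.598 by edgeR and a 95% interval from -0.80 to 0.016. With 1 mouse left out, it ranged from -0.59 without *Lztr1* R409C/+ replicate 3 to -0.28 without *Lztr1* R409C/+ replicate 1.

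Of the genes for uptake into the SR, *Atp2a2* encodes the cardiac SR calcium pump SERCA2 (chr5:122591575-122640903, minus strand). It was the most abundant of the 10 genes, with 13815, 14294, and 14800 CPM in WT mice and 8719.5, 11626, and 10812 CPM in *Lztr1* R409C/+ mice. All 3 *Lztr1* R409C/+ mice were below all 3 WT mice, and the WT mice were close together, with a coefficient of variation of 3.44% against 14.4% in *Lztr1* R409C/+ mice. Means were 14303 ± 493 and 10386 ± 1499 CPM (SD, n = 3 each), and the log2 fold change was -0.46 ± 0.24 (adjusted p = 0.630, edgeR; 95% interval -0.99 to 0.066).

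*Pln* encodes phospholamban, the small membrane protein that inhibits SERCA2 (chr10:53199622-53223512, plus strand). The WT mice had 6252, 7038, and 5879 CPM and the *Lztr1* R409C/+ mice had 7059.8, 6456, and 4472 CPM. *Lztr1* R409C/+ replicate 1, which was lowest of the 6 mice for *Atp2a2*, was highest for *Pln*, and replicate 3 was lowest. The log2 fold change was -0.092 ± 0.24 (adjusted p = 0.945, edgeR; 95% interval -0.62 to 0.44), and it was 0.081 without *Lztr1* R409C/+ replicate 3.

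At the sarcolemma, *Cacna1c* encodes the pore subunit of the L-type calcium channel (chr6:118564201-119173851, minus strand). Levels were 217, 225, and 162 CPM in WT mice and 128, 156, and 178 CPM in *Lztr1* R409C/+ mice. WT replicate 3 fell inside the *Lztr1* R409C/+ range, which made the genotypes overlap. The log2 fold change was -0.39 ± 0.18 (adjusted p = 0.597, edgeR; 95% interval -0.79 to 0.015).

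*Slc8a1* encodes the sodium-calcium exchanger NCX1, the main route of calcium out of the cardiomyocyte (chr17:81680534-82045891, minus strand). Its 3 WT values were 379, 381, and 412 CPM and its 3 *Lztr1* R409C/+ values were 242, 327, and 266 CPM. The genotypes did not overlap, and each *Lztr1* R409C/+ mouse was below every WT mouse. With means of 390 ± 18.3 and 278 ± 44.3 CPM (SD, n = 3 each), the log2 fold change of -0.49 ± 0.17 was the largest of the 10 in size, with a 95% interval from -0.85 to -0.13. The unadjusted p was 0.0123, and the adjusted p of 0.454 by edgeR did not pass. Over 16 alternatives its log2 fold change lay between -0.65 and -0.36, and its adjusted p between 0.171 and 0.976.

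*Camk2d* encodes the delta subunit of calcium/calmodulin-dependent kinase II, which phosphorylates the ryanodine receptor and phospholamban (chr3:126389945-126639982, plus strand). Its levels were 189.6, 189.8, and 246 CPM in WT mice and 154, 195, and 141 CPM in *Lztr1* R409C/+ mice. WT replicate 3 was above the rest, and *Lztr1* R409C/+ replicate 2 was above the other 2 WT mice. The log2 fold change was -0.35 ± 0.18 (adjusted p = 0.619, edgeR; 95% interval -0.74 to 0.043). It was -0.22 without WT replicate 3 and also with the gene length correction.

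**Figure D2:**
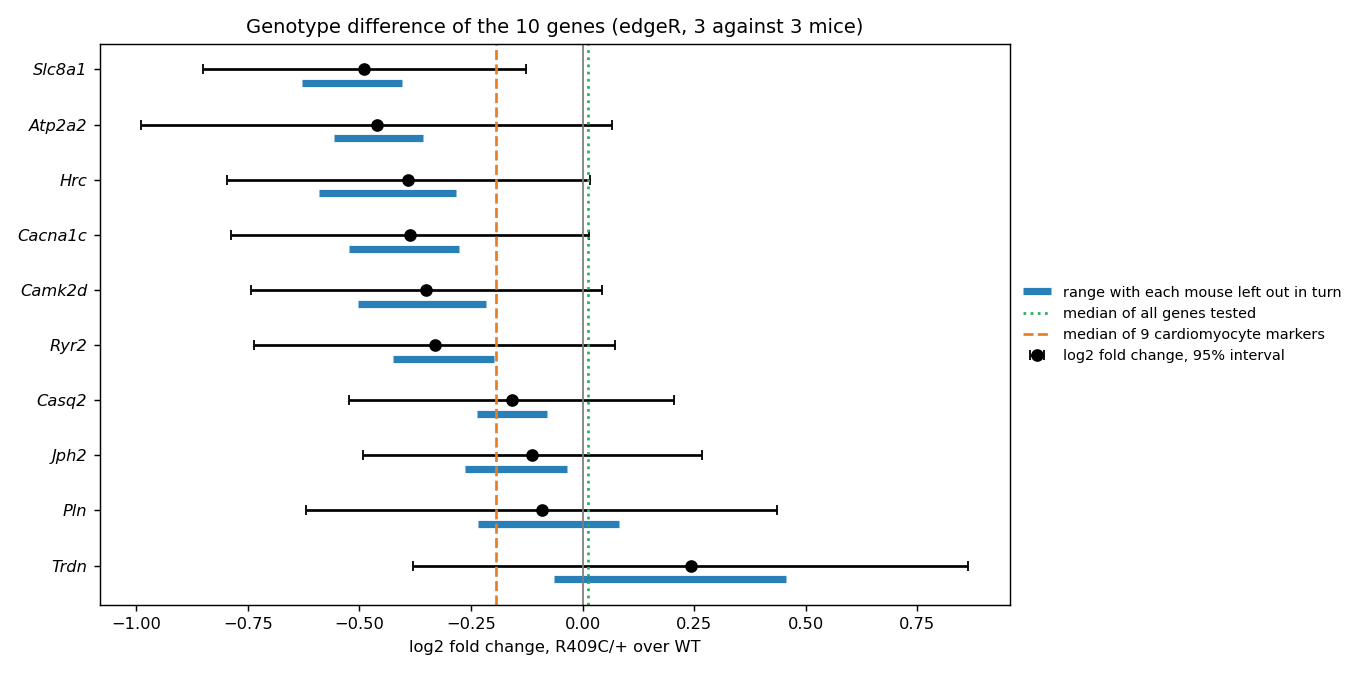
Log2 fold change of *Lztr1* R409C/+ over WT mice (horizontal axis) for each of the 10 genes, ordered by size, with the 95% interval of edgeR's fit in black and, in blue, the range of the estimate when each mouse is left out in turn. Only the interval of *Slc8a1* ends below 0, at -0.13, and the blue ranges of *Pln* and *Trdn* cross 0. The dotted line is the median of all genes tested, 0.012, and the dashed line the median of 9 cardiomyocyte markers, -0.19.

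The coefficient of variation was larger in *Lztr1* R409C/+ than in WT mice for 9 of 10 genes, against 54.6% of all genes tested, with *Cacna1c* the exception at 16.3% and 17.0%. The difference in spread was not tested. Relative to the WT mean of each gene on the log2 scale, the median over the 10 genes came to -0.0079, -0.017, and 0.063 for the WT mice by replicate number, and to -0.53, -0.20, and -0.23 for the *Lztr1* R409C/+ mice. *Lztr1* R409C/+ replicate 1 was the lowest of the 6 mice for 7 of 10 genes, and it was also the library with the highest mitochondrial share. The 10 genes together amounted to 23974, 25077, and 24572 CPM in the WT mice and to 18698, 21490, and 18676 CPM in *Lztr1* R409C/+ mice, sums that are made up mostly of *Atp2a2* and *Pln*. As a share of the counts outside mitochondrially encoded genes, the sum was 3.47%, 3.62%, and 3.96% in the WT mice and 2.74%, 3.26%, and 2.91% in *Lztr1* R409C/+ mice. The 2 genotypes did not overlap in either sum.

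Markers of cell types were read beside these values. Of 9 cardiomyocyte markers, 4 were higher and 5 lower, 0 were called by edgeR, and the median log2 fold change was -0.19. Relative to this median, the 10 SR genes had a median of -0.15, an alternative chosen after the data were seen. By mouse, the median of the 9 markers relative to WT was 0.11, -0.096, and -0.0008 in the WT mice and -0.20, -0.17, and 0.13 in *Lztr1* R409C/+ mice. All 6 leukocyte markers were higher, with 1 called, the complement gene *C1qb* (log2 fold change 1.15, adjusted p = 0.0241, edgeR), and their summed level was 85.0 to 89.8 CPM in the WT mice and 153 to 170 CPM in *Lztr1* R409C/+ mice. Each of 5 erythroid markers was higher without passing the test, with sums of 579 to 1479 CPM in the WT mice and 1042 to 2626 CPM in *Lztr1* R409C/+ mice. Sums overlapped between the genotypes for fibroblast markers (621 to 808 and 664 to 801 CPM) and endothelial markers (484 to 662 and 413 to 692 CPM). The same held for smooth muscle and pericyte markers (629 to 741 and 568 to 718 CPM). None of these 15 markers was called by edgeR. Of the fibroblast markers 4 were higher and 2 lower, and of the endothelial markers 3 were higher and 2 lower. Of the smooth muscle and pericyte markers 1 was higher and 3 lower. The fibroblast genes *Lum* and *Tcf21* (log2 fold changes 0.61 and 0.54, adjusted p = 0.305 and 0.565, edgeR) lay above WT without overlap. So did the endothelial gene *Emcn* (0.40, adjusted p = 0.535), and the smooth muscle gene *Myh11* (-0.71, adjusted p = 0.438) lay below. Of all genes tested, 15.5% were separated in either direction. The part of these cell types and of the mitochondrial share in the values of the 10 genes was not tested.

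Per kilobase of exons, which makes levels comparable between genes, the 10 genes covered a wide range in WT mice. In RPKM, here TMM-scaled CPM divided by the length of the merged exons in kilobases, *Atp2a2* was at 1169 ± 40.3 and *Pln* at 1037 ± 96.0 (SD, n = 3 each), and the mice of these 2 genes overlapped. *Hrc* at 197 ± 16.9, *Casq2* at 134 ± 10.4, *Jph2* at 56.3 ± 5.46, *Ryr2* at 36.2 ± 2.06, and *Slc8a1* at 20.6 ± 0.962 RPKM followed without overlap between neighbors. *Trdn* at 13.4 ± 4.40, *Cacna1c* at 9.02 ± 1.53, and *Camk2d* at 7.81 ± 1.22 RPKM overlapped each with the next. Over the longest transcript instead, *Atp2a2* was above *Pln* without overlap, at 1939 and 1437.5 RPKM. The order of the lower genes also changed on that scale, with *Camk2d* at 26.4, *Trdn* at 25.3, *Slc8a1* at 21.1, and *Cacna1c* at 15.3 RPKM, so it depends on which transcript the LV makes.

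**Figure D3:**
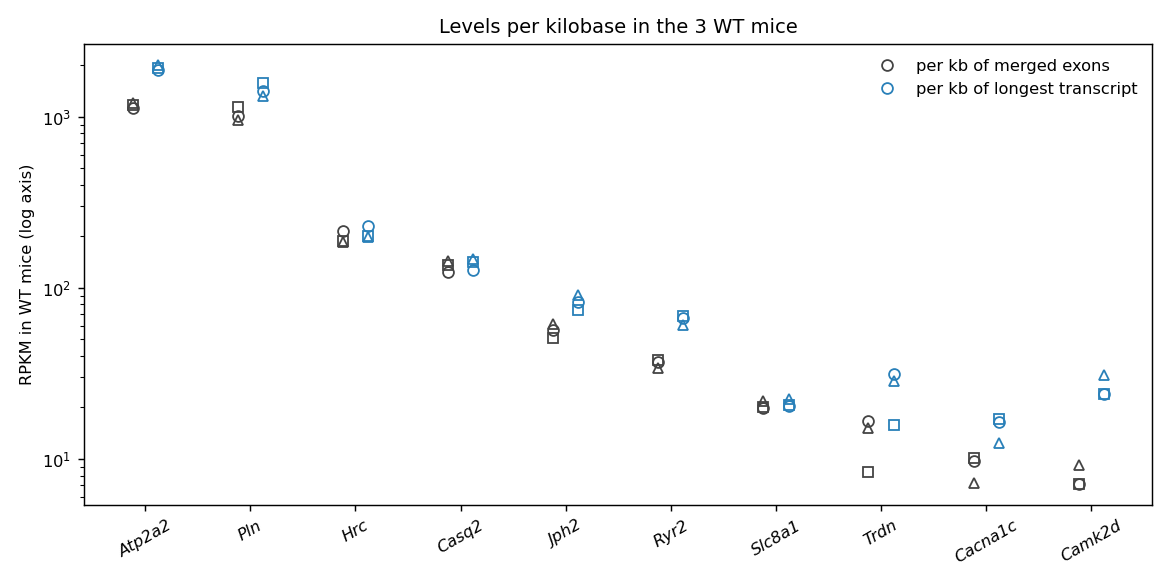
RPKM on a log axis in each of the 3 WT mice (circles, squares, and triangles for replicates 1, 2, and 3) for the 10 genes, per kilobase of merged exons in gray and of the longest transcript in blue. *Atp2a2* and *Pln* stand above the rest and overlap per merged exons, and the length used changes the order of *Trdn*, *Cacna1c*, *Camk2d*, and *Slc8a1*.

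Ratios of 2 genes within a mouse do not depend on the scaling between libraries, and 4 were compared. The ratio of *Pln* to *Atp2a2* counts sets the inhibitor beside the pump. It was 0.453, 0.492, and 0.397 in WT mice and 0.810, 0.555, and 0.414 in *Lztr1* R409C/+ mice. The first 2 *Lztr1* R409C/+ mice were above every WT mouse, but replicate 3 was within the WT range. The log2 difference of 0.36 had an exact two-sided permutation p of 0.3 (0.6 adjusted over the 4 ratios), where 3 mice against 3 allow no p below 0.1, and it was 0.10 without *Lztr1* R409C/+ replicate 1.

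The ratio of *Slc8a1* to *Atp2a2* spanned the narrowest range. It was 0.0274, 0.0267, and 0.0278 in the WT mice and 0.0277, 0.0282, and 0.0246 in *Lztr1* R409C/+ mice, with a log2 difference of -0.028 (exact permutation p = 0.9, also after adjustment). The ratio of *Casq2* to *Ryr2* was 0.629, 0.680, and 0.797 in the WT mice and 0.869, 0.773, and 0.745 in *Lztr1* R409C/+ mice, a log2 difference of 0.18 (exact permutation p = 0.3, adjusted p = 0.6). For *Cacna1c* over *Ryr2* the ratio was 0.195, 0.196, and 0.158 in the WT mice and 0.185, 0.161, and 0.187 in *Lztr1* R409C/+ mice, a log2 difference of -0.038 (exact permutation p = 0.6, adjusted p = 0.8). The genotypes overlapped in all 4 ratios.

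**Figure D4:**
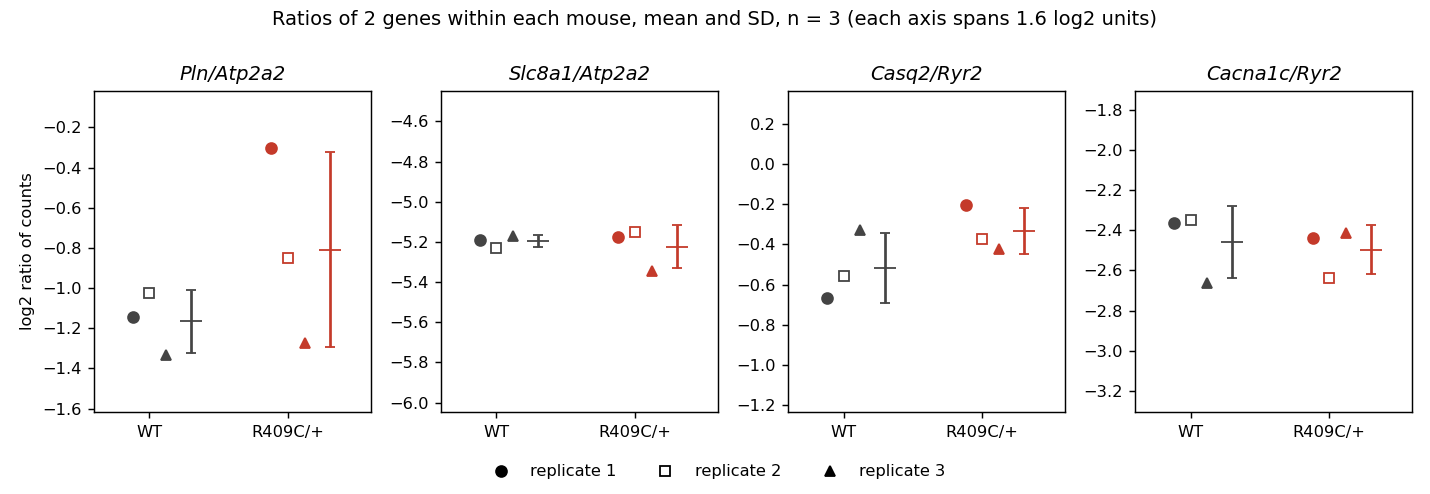
Log2 ratio of the counts of 2 genes in each mouse (vertical axes, each spanning the same number of log2 units), with the mean and SD of the 3 mice of each genotype. *Pln*/*Atp2a2* is most spread in *Lztr1* R409C/+ mice, from 0.414 to 0.810 on the linear scale, and *Slc8a1*/*Atp2a2* is least spread.

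The genes most like *Ryr2* and *Atp2a2* over the 6 mice were found by the root mean square difference of log2 CPM, each gene centered on its own mean. For *Ryr2* these were *Glg1* (0.036), *Ubr2* (0.039), and *Polr2b* (0.039), where the median of the other genes tested was 0.33. For *Atp2a2* they included *Gcn1* (0.051) and *Mpdz* (0.053), with a median of 0.35. Among the 10 SR genes, *Slc8a1* was nearest to *Atp2a2* (0.066) and *Atp2a2* nearest to *Ryr2* (0.10), while *Trdn* was farthest from both (0.62 and 0.63). These differences describe 6 mice that share 2 genotypes, so genes with a like genotype difference come out as alike.

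Other genes of calcium handling were read from 9 lists of partners and regulators. Of 112 genes listed, 105 were tested and 0 were called by edgeR, with 44 higher and 61 lower and a median log2 fold change of -0.082. At an unadjusted p under 0.05, 4 were higher (3.81%) and 7 lower (6.67%), against 5.77% and 2.86% of all genes tested. The lowest adjusted p among the 105 was 0.407.

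Among 17 partners of the release channels, 7 were higher and 10 lower. *Akap6*, an anchoring protein for kinases near the ryanodine receptor, had 190, 180.2, and 213 CPM in the WT mice and 130.2, 153, and 136 CPM in *Lztr1* R409C/+ mice without overlap (log2 fold change -0.47, adjusted p = 0.422, edgeR). *Ryr1*, the skeletal muscle form, had 6 to 41 counts per mouse. Among regulators of the SR pump and other SR pumps, 8 of 10 tested genes were higher and 2 lower. They included *Mrln*, a micropeptide inhibitor of the pump, with 16 to 40 counts per mouse, and *Ppp1cb*, a catalytic subunit of the phosphatase that acts on phospholamban (log2 fold change -0.43, adjusted p = 0.643, edgeR).

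Genes for calcium-binding proteins of the SR and endoplasmic reticulum lumen gave 5 higher and 6 lower of 11. The calsequestrin form of skeletal muscle, *Casq1*, was at 5.27, 3.36, and 5.47 CPM in the WT mice and 2.67, 2.98, and 2.91 CPM in *Lztr1* R409C/+ mice (log2 fold change -0.72, adjusted p = 0.470, edgeR), far below *Casq2*. The chaperone gene *Hspa5* was at 570.0, 496, and 822 CPM in the WT mice and 375, 490.1, and 445 CPM in *Lztr1* R409C/+ mice (-0.53, adjusted p = 0.521, edgeR). In both genes the *Lztr1* R409C/+ mice lay below the WT mice. Partners of the dyad and T-tubule gave 4 higher and 4 lower of 8, led by *Mtm1*, a phosphoinositide phosphatase (-0.47, adjusted p = 0.514, edgeR), and *Jph1*, the skeletal muscle junctophilin (-0.44, adjusted p = 0.533).

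Genes of voltage-gated calcium channel subunits, T-type ones included, and of L-type regulators were 9 higher and 7 lower of 16 tested. *Rem1*, a small GTPase that inhibits the L-type channel, was at 2.48, 2.52, and 1.19 CPM in the WT mice and 3.92, 3.17, and 5.73 CPM in *Lztr1* R409C/+ mice, without overlap (log2 fold change 1.06, adjusted p = 0.407, edgeR). *Cacna1h*, a T-type channel subunit, was at 5.76 ± 1.21 and 8.48 ± 2.22 CPM (SD, n = 3 each; 0.56, adjusted p = 0.554, edgeR). Of 8 genes for extrusion across the sarcolemma, 2 were higher and 6 lower. The 2 with the smallest p were the plasma membrane pumps *Atp2b2* and *Atp2b4* (-1.17 and 0.29, adjusted p = 0.691 and 0.715, edgeR). *Atp2b2* had only 6 to 28 counts per mouse.

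The list of kinases, calcineurin, phosphatases, phosphodiesterases, and regulators of these had the most genes on the lower side, 16 of 19, with a median of -0.16. Over all genes tested, 48.6% were lower and the median was 0.012. In that list, 1 gene was lower at an unadjusted p under 0.05 by edgeR, and 3 lay below WT without overlap. *Pde3a*, a cAMP phosphodiesterase, was at 112, 117, and 108 CPM in the WT mice and 79.3, 88.8, and 86.9 CPM in *Lztr1* R409C/+ mice without overlap (log2 fold change -0.40, adjusted p = 0.478, edgeR). *Prkar1a*, a regulatory subunit of protein kinase A, had a log2 fold change of -0.32 (adjusted p = 0.653, edgeR). For mitochondrial calcium uptake, 4 genes were higher and 5 lower. *Mcub*, a subunit that limits the uniporter, was at 1.20, 0.839, and 0.855 CPM in the WT mice and 1.91, 2.42, and 1.57 CPM in *Lztr1* R409C/+ mice (1.03, adjusted p = 0.410, edgeR), and *Micu3*, a uniporter regulator, had a log2 fold change of -0.96 (adjusted p = 0.570, edgeR). Store-operated entry gave 3 higher and 5 lower of 8, with *Orai2*, a channel subunit, at 0.79 (adjusted p = 0.523, edgeR) and *Saraf*, which restrains that entry, at -0.40 (adjusted p = 0.582, edgeR).

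Antisense genes share exons with some of the 10 genes, and the library kit, as named in the labels, is not stated to keep strand, so reads of both strands cannot be told apart there. *Pln* shares 2688 of its 6163 exonic bases with *Gm47644*, which was given 7483 to 8346 counts in 5 mice and 3507 in *Lztr1* R409C/+ replicate 3. That was 1.08% to 2.05% of the *Pln* counts. *Trdn* shares 1179 bases with *D830005E20Rik*, which was given 275 counts in WT replicate 2 and 780 to 1145 in the other 5 mice, or 2.41% to 4.75% of the *Trdn* counts. In each pair the antisense gene was lowest in the mouse where *Pln* or, respectively, *Trdn* was lowest. For *Atp2a2*, no overlapping gene was given more than 0.237% of its counts.

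The promoters of 8 of the 10 genes were matched in the RefSeq table of GRCm38.p6, as 11 windows of 300 bases around gene starts. *Atp2a2* and *Trdn* were not matched. Shown are the 250 bases before the start of *Ryr2* and *Slc8a1*, which did not overlap between genotypes, and of *Pln*, which differed least. Each is printed 5′ to 3′ on the strand of the gene. Capitals mark matches on either strand of 4 short motifs, namely the TATA box spelled TATAAA, the GC box spelled GGGCGG, the E-box spelled CANNTG, and the GATA motif spelled AGATAA.
*Ryr2* promoter, chr13:12106946-12107195, minus strand: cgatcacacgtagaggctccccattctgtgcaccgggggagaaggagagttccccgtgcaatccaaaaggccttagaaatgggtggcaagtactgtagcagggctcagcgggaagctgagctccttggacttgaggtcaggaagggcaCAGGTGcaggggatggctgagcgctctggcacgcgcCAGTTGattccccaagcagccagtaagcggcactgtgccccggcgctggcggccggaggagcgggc
*Slc8a1* promoter, chr17:81738388-81738637, minus strand: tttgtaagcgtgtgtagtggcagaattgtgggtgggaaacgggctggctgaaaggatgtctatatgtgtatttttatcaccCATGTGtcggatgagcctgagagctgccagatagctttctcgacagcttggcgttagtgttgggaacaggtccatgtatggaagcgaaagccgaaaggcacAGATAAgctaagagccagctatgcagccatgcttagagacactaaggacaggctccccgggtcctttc
*Pln* promoter, chr10:53337436-53337685, plus strand: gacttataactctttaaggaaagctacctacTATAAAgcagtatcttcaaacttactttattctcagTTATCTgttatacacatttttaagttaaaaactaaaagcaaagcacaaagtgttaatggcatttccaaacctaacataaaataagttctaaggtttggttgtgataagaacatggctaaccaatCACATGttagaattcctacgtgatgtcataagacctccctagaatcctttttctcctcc
Counted by window, TATAAA was found in 1 of the 11, that of *Pln*, and in 13.6% of the 32851 windows of the table. GGGCGG was found in 6 of 11 and in 35.7% of all windows, CANNTG in 10 of 11 and in 72.3%, and AGATAA in 2 of 11, those of *Pln* and *Slc8a1*, and in 11.2%. *Cacna1c* and *Jph2* have more than 1 window each, so the 11 are not independent. A match describes the letters in the window only.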

How the data were processed

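mRNA-Seq was performed on the LVs of 3 WT and 3 *Lztr1* R409C/+ mice. The authors trimmed reads with Trim Galore, aligned them to GRCm39 with HISAT2, excluded rRNA, and quantified genes with StringTie, and versions and the annotation release are not given in the sources used here. The deposited table holds raw counts, whole numbers for each gene, and how StringTie's output was turned into them is not stated. A second deposited table, with fold changes and p-values of the authors' edgeR comparison, was used for gene names only. Counts of 56923 genes, with totals of 66130887 to 72641124 per mouse, were analyzed in R 4.3.3 with edgeR 4.0.16. filterByExpr left 17212 genes, TMM scaled them, and the robust quasi-likelihood test compared the genotypes over all 6 mice with no covariate, two-sided, with Benjamini-Hochberg adjustment at 0.05. The standard error is the log2 fold change divided by the square root of F, and 95% intervals use edgeR's degrees of freedom. The common biological coefficient of variation was 26.1%. RPKM used exon lengths of GENCODE for GRCm39, and ratios were compared with exact permutation tests in scipy 1.17.1.

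The members, the gene lists, and the tests were chosen with earlier results of these data known. All 10 members are named, as are the 2 genes of each calcium list with the smallest p, and the 3 genes nearest to *Ryr2* and to *Atp2a2*, of which 1 is not reported here. Alternatives were other scalings, DESeq2 1.42.0, no filter on low counts or a minimum of 10 counts per mouse, the table without mitochondrial genes, a replicate block, a loess fit on gene length, a threshold of 0.1, and omission of each mouse. Omission of 2 mice together and scaling to cardiomyocyte markers were chosen after seeing the data. Scripts were tested on simulated counts of 3 mice against 3. Of 100 genes changed by 0.5 on the log2 scale, edgeR called 5 and DESeq2 called 10. Of 100 genes changed by 1, they called 65 and 76. That 0 of the 10 genes were called therefore does not show that their levels were unchanged. Positions are from GRCm39, and promoters from GRCm38.p6 were not converted. No batch is given in the labels.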

Additional observations from a re-analysis of the deposited data

How the results depend on the processing

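The number of the 10 genes called by edgeR or DESeq2 stayed 0 under all alternatives run, and 7 genes kept the sign of their log2 fold change in all 16 of theirs. *Trdn* was reversed to -0.0001 with library size only, to -0.0071 without WT replicate 2, and to -0.0633 without *Lztr1* R409C/+ replicate 1, *Pln* to 0.0808 without *Lztr1* R409C/+ replicate 3 (range with 1 mouse left out, -0.234 to 0.0808, and -0.0633 to 0.457 for *Trdn*), and *Jph2* to 0.0427 without both WT replicate 3 and *Lztr1* R409C/+ replicate 1. The number of the 10 genes with a higher level was 1, and it was 0 with library size only, 2 without both of those mice, and 0 to 2 with 1 mouse left out. The number without overlap was 3, and it was 5 without both mice and 3 to 6 with 1 mouse left out, all lower. With fewer mice more genes are separated, since 19.9% of all genes were lower without overlap without both mice and 11.1% to 13.1% with 1 mouse left out, against 7.23% with all mice. Library size only moved the median of all genes by -0.16, and relative to that median the 10 genes stood at -0.32, against -0.35 with TMM. With the gene length correction the median of the 10 genes was -0.22 and that of all genes -0.038. Relative to that median of all genes, the 10 genes stood at -0.19. The median of the 10 genes was -0.147 relative to cardiomyocyte markers.

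Over all genes, 7 were called (6 higher, 1 lower). The count was 21 (15 higher, 6 lower) with library size only, 20 with no filter, 158 with DESeq2, 2 with the gene length correction, 16 at a false discovery rate of 0.1, 1 without both mice, and 2 to 4 with 1 mouse left out. With the replicate block it was 1, and the median of the 10 genes was -0.35. The same-numbered mice had correlations of -0.0013, 0.022, and -0.057 in their deviations, so the numbers were not taken to pair the mice. With 1 mouse left out, the log2 ratios ranged from 0.105 to 0.589 for *Pln*/*Atp2a2*, -0.0649 to 0.0337 for *Slc8a1*/*Atp2a2*, 0.109 to 0.279 for *Casq2*/*Ryr2*, and -0.14 to 0.0323 for *Cacna1c*/*Ryr2*, whose sign turned without WT replicate 1 (0.0102), WT replicate 2 (0.0163), or *Lztr1* R409C/+ replicate 2 (0.0323). WT levels over the longest transcript were 65.1 RPKM for *Ryr2*, 1939 for *Atp2a2*, 1437.5 for *Pln*, 25.3 for *Trdn*, 82.4 for *Jph2*, 15.3 for *Cacna1c*, and 26.4 for *Camk2d*. The cause of these shifts was not tested.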
